A study of Mus musculus with 6 samples.

Results

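The 10 genes described here encode parts of the machinery that seals and shapes the surface membrane of muscle cells. They are *Trim72*, *Dysf*, *Cav3*, *Cavin1*, *Cavin4*, *Anxa1*, *Anxa2*, *Anxa5*, *Anxa6* and *Bin1*, and they were taken as a list of symbols from 54232 genes in the count tables. *Trim72* was put on the list because of its value in the same comparison of these mice: it was one of 2 genes past a false discovery rate (FDR) of 10% in a fit that treats the replicate number as a block. Its difference between the groups is therefore given as a description, without a test. The other 9 genes were listed by function, with earlier results of these data known. All 10 had enough reads to enter the comparison, the lowest single count being 111 for *Bin1*.

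The RNA came from the heart ventricle of wild-type C57BL/6J mice fed a western diet (WD) for 15 weeks. The animals then received Tributyrin, a triglyceride of the short-chain fatty acid butyrate, or vehicle for 3 weeks, in cycles of 2 days on and 2 days off, at 5 g/kg of body weight. The labels name the control treatment PBS, and the groups are called WD + Vehicle and WD + Tributyrin below. There were 3 mice in each, with 1 library per mouse, and none of these libraries is from lean mice on normal chow, whose levels are not analysed here. The labels and the methods of the Tributyrin cohort give no age for these animals. Every library had male-type expression, with 0 to 6 counts of *Xist* and 1571 to 2559 counts of *Ddx3y*.

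Each library held 20369746 to 32734485 counts. The ventricular cardiomyocyte markers (8 genes, *Myh6* and *Myl2* among them) summed to 1424000 to 1462000 normalized counts in WD + Vehicle and 1378000 to 1492000 in WD + Tributyrin. Within this sum 6 of the 8 markers had a positive log2 fold change and 2 a negative one. An unadjusted p under 0.05 in edgeR was reached by 4 of the 8, beside 4.25% of all genes, and none passed the adjustment. Their log2 fold changes were 0.23 for *Tnnt2*, 0.21 for *Tnni3*, 0.24 for *Pln* and -0.21 for *Actc1*. *Trim72* and *Dysf* are expressed in cardiomyocytes too, and the part of these differences in their values was not tested. The libraries were less alike in atrial cardiomyocyte markers (*Myl7*, *Nppa*, *Sln*, *Myl4* and *Mybphl*). These summed to 4786 and 4539 normalized counts in vehicle mice 1 and 2, 1414 in vehicle mouse 3, and 815.4 to 1687 in the Tributyrin mice. *Nppa* differed from the other atrial markers and was highest in vehicle mouse 3. The log2 fold changes that moved most without vehicle mice 1 and 2 are also given without them, from a fit in which the 1 vehicle mouse left is assumed to vary as the Tributyrin mice do.

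When the membrane of a muscle cell tears, calcium enters and a patch of intracellular vesicles is drawn to the gap. The protein of *Trim72*, called MG53, is a muscle tripartite motif (TRIM) protein that brings vesicles to the site of injury, and dysferlin, the product of *Dysf*, is a calcium-binding membrane protein that takes part in patch fusion. Annexins bind membrane phospholipids in the presence of calcium and collect at the lesion. Caveolin-3, the muscle caveolin made from *Cav3*, and the cavins coat caveolae, the small pits that store membrane, and amphiphysin 2, made from *Bin1*, bends membrane into the transverse (T) tubules that carry the action potential into the cell.

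The stretches upstream of *Trim72* and *Dysf* are shown because these genes had the largest differences of the 10, and that of *Pycard* because this neighbour of *Trim72* followed it from mouse to mouse (below, after the values of the members). Each run is the 250 bases before a RefSeq transcript start in GRCm38.p6, 5′ to 3′ on the strand of the gene, with matches to the motifs searched in capitals. The *Trim72* window is chr7:128004128-128004377 on the plus strand, which lies in intron 1 of a longer transcript of the gene. The *Pycard* window is chr7:127993868-127994117 on the minus strand. *Dysf* has a window at each of its starts, chr6:84008348-84008597 (first) and chr6:84019136-84019385 (second), both on the plus strand.
Trim72: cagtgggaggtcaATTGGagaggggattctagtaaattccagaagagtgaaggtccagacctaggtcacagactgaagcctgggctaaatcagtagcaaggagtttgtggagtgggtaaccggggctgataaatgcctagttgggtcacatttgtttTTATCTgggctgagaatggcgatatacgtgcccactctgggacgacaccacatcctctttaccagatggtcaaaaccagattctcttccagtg
Pycard: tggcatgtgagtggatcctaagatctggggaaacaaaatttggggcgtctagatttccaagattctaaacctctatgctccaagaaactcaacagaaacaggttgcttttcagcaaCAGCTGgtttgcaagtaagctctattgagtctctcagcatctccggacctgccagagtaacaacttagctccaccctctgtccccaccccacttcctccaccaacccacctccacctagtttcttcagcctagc
Dysf, first start: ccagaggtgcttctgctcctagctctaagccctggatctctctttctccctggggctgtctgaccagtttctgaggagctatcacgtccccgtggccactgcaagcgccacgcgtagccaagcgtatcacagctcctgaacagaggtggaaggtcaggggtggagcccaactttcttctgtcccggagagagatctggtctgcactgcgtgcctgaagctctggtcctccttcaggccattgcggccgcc
Dysf, second start: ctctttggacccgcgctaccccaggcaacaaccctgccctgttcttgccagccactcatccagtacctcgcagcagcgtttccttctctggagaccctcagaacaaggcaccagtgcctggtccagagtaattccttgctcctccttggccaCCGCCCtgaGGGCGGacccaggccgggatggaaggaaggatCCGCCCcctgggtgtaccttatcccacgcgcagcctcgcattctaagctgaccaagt

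The motifs were searched on both strands. They were the TATA box spelled TATAAA, the CCAAT box spelled CCAAT, the GC box spelled GGGCGG, the E-box of muscle factors spelled CAGCTG, the MCAT element spelled CATTCC, the GATA site spelled AGATAA, and the MEF2 and CArG sites by name. The *Trim72* window holds a CCAAT match 237 bases and a GATA match 93 bases before the start, both on the opposite strand and so printed as their reverse complements. Of all 32851 windows of this length, 33.8% hold a CCAAT match and 9.99% a GATA match. *Pycard* has the E-box 134 bases before its start, as *Cav3* has 106 bases before its own, and 13% of all windows hold one. The first *Dysf* window has no match, and the second has GC boxes at 98, 89 and 57 bases, a motif present in 32.7% of windows. No motif is shared by the *Trim72* window and either *Dysf* window. *Cavin4*, *Anxa1* and *Anxa2* have a TATA box 30, 32 and 17 bases before their starts, and 12.4% of windows hold one. None of the windows of the members holds a MEF2 or a CArG match, which 2.92% and 1.47% of all windows do. The window of *Trim72* is 48.8% G or C with 4 CpG pairs, beside medians of 52.4% and 6 over all windows. These matches describe the letters alone. Of the 10 members 8 have a window in the table used here, and the windows of *Anxa6* and *Bin1* are not shown.

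Levels per length of exon place *Trim72* among the abundant transcripts of the ventricle. In TPM, a length-scaled share of all transcripts that can be compared between genes, *Trim72* had a median of 193 over the 6 mice, with a range of 126 to 263, and stood at percentile 98.6 of the detected genes. *Anxa6* followed with a median of 167 TPM (149 to 176), then *Cavin1* with 152 TPM (142 to 176) and *Cavin4* with 132 TPM (113 to 153). The ranges of neighbours in this order overlapped from *Trim72* down to *Cavin4*, although *Cavin1* was above *Cavin4* within each of the 6 mice. *Trim72* was above *Anxa6* in 5 of the 6 mice, and *Anxa6* above *Cavin1* in 5. *Cavin4* was above *Cav3* in every mouse with no overlap of their ranges. *Cav3* had a median of 106 TPM (101 to 111) and *Anxa5* one of 95.7 TPM (79.8 to 109), and these overlapped. The next step was a gap: *Dysf* lay at 35.1 TPM (27.8 to 41.6) and *Anxa2* at 29.3 TPM (22.4 to 36.9), with overlapping ranges. *Anxa1* had 15.3 TPM (12.2 to 18.0), and *Bin1* was lowest with 3.05 TPM (2.41 to 3.82), at percentile 62.8 of the detected genes.

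**Figure D1:**
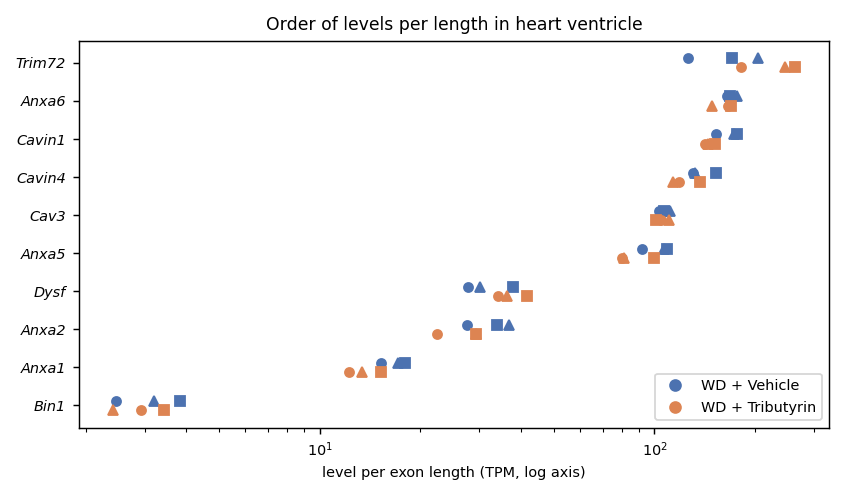
Level of each of the 10 genes in each mouse, in TPM on a log axis, ordered by median (blue, WD + Vehicle; orange, WD + Tributyrin; circle, square and triangle are mice 1, 2 and 3 of a group). *Trim72* spans 126 to 263 TPM and is the widest of the upper genes, while *Bin1* lies at 2.41 to 3.82 TPM.

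The members differed in how much of their own family they made up. *Dysf* supplied most ferlin transcripts, with 88.6% ± 1.95 of the summed TPM of 5 ferlins in WD + Vehicle and 91.6% ± 0.99 in WD + Tributyrin (SD, n = 3 each). *Cav3* and *Cav1*, a caveolin of endothelial and other cells, were at like levels. The *Cav3* to *Cav1* ratio of TPM was 0.95 ± 0.09 in WD + Vehicle and 1.03 ± 0.09 in WD + Tributyrin. *Cavin1*, the cavin that all caveolae need, and *Cavin4*, the muscle cavin, held medians of 37.5% and 31.6% of the cavin TPM. *Anxa6* alone held a median of 44.2% of the annexin TPM and *Anxa5* 25.5%. Among the 8 TRIM genes listed, *Trim54*, a muscle RING finger gene, had the highest level with a median of 254 TPM (223 to 299), and its range overlapped that of *Trim72*.

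*Trim72* (ENSMUSG00000042828, chr7:128003949-128011033, plus strand) had a higher mean in WD + Tributyrin. In the vehicle mice 1, 2 and 3 its normalized read count, the count divided by the size factor of the library, was 3260, 4087 and 4881. In the Tributyrin mice 1, 2 and 3 it was 4814, 6589 and 7061. The groups overlapped, since Tributyrin mouse 1 was just below vehicle mouse 3, and the other 2 Tributyrin mice were above every vehicle mouse. The means were 4076 ± 811 and 6154 ± 1185 normalized read counts (SD, n = 3 each), a difference of 2078 or 51.0%. The edgeR log2 fold change was 0.60 with a standard error of 0.16. The antisense gene *Gm15533* overlaps 617 exon bases of *Trim72* but had 0 to 7 counts in each library, against 3136 to 7211 for *Trim72*.

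Vehicle mice 1 and 2, with the high sums of atrial markers, were also the mice lowest in *Trim72*. Without both, the log2 fold change of *Trim72* was 0.33. Leaving out 1 mouse at a time gave 0.46 to 0.75. Among the Tributyrin mice, mouse 1 had the lowest atrial sum (815.4) and also the lowest *Trim72* (4814 normalized read counts). Mouse 2 had the highest atrial sum (1687) and 6589 normalized read counts of *Trim72*. Of the 5 atrial markers, all had a negative log2 fold change, with a median of -1.94, and 4 had an unadjusted p under 0.05 in edgeR (*Myl7* 1746, 1483 and 111 against 194, 480 and 197 normalized read counts), though none passed the adjustment. *Nppa* was instead highest in vehicle mouse 3, with 554, 485 and 1046 against 296, 416 and 731 normalized read counts. The part of atrial tissue in the *Trim72* difference was not tested. In whole tissue, fewer cells of a type and less RNA per cell cannot be told apart.

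*Dysf* (ENSMUSG00000033788, chr6:84008590-84211060, plus strand) had the next largest difference. Its normalized read counts were 2678, 3386 and 2688 in the vehicle mice and 3374, 3876 and 3866 in the Tributyrin mice. The groups touched: vehicle mouse 2 was just above Tributyrin mouse 1, and the other 2 vehicle mice were below all others. The means were 2917 ± 406 and 3705 ± 287, a difference of 788 normalized read counts, with a log2 fold change of 0.34 and a standard error of 0.10. It was 0.46 without vehicle mice 1 and 2, and 0.29 to 0.47 with single mice left out. Its antisense neighbours *Gm33024* and *Gm15475* had at most 11 and 7 counts. *Dysf* did not follow *Trim72* in the vehicle mice, where mouse 3 was highest for *Trim72* but close to the lowest for *Dysf*.

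*Myof* encodes myoferlin, the closest relative of dysferlin, and went the other way. It had 238, 269 and 278 normalized read counts in the vehicle mice and 202, 229 and 180 in the Tributyrin mice, without overlap. The log2 fold change was -0.36 with a standard error of 0.13, which has an unadjusted p of 0.0177 and an adjusted p of 0.999 in edgeR, and it was -0.45 without vehicle mice 1 and 2. The ratio of *Dysf* to *Myof* TPM was 17.0, 19.1 and 14.6 in the vehicle mice against 25.3, 25.6 and 32.5 in the Tributyrin mice. This ratio was chosen after the values were seen and has no test. Fibroblast markers summed to 19550 to 21040 normalized counts in WD + Vehicle and 17600 to 21160 in WD + Tributyrin. Most of this sum was *Dcn*, with 11720 to 13350 in each mouse. Of the 6 fibroblast markers, 4 had a negative log2 fold change: *Col1a1* -0.46, *Lum* -0.31, *Col1a2* -0.30 and *Pdgfra* -0.01. *Dcn* (0.01) and *Tcf21* (0.07) were positive. An unadjusted p under 0.05 in edgeR was reached by 2 of the 6, *Col1a1* and *Lum*, beside 4.25% of all genes. None of the 6 passed the adjustment. The part of fibroblasts in the *Myof* difference was not tested.

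**Figure D2:**
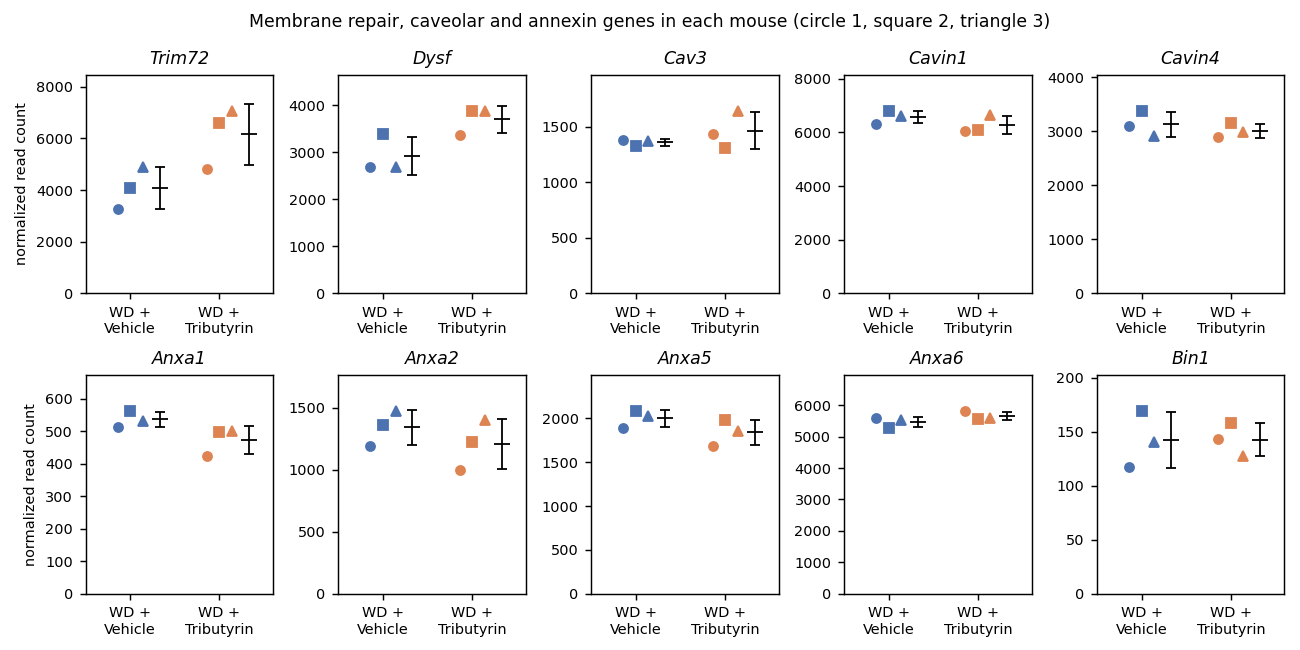
Normalized read count of each gene in each mouse (circle, square and triangle are mice 1, 2 and 3), with the mean and SD of each group of 3 beside the points and axes from 0. *Trim72* and *Dysf* have higher means in WD + Tributyrin with touching groups, *Anxa1* is lower in every Tributyrin mouse, and the other panels overlap.

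The 3 caveolar genes stayed close to their vehicle levels. *Cav3* (ENSMUSG00000062694, chr6:112459505-112472872, plus strand) had 1380, 1325 and 1373 normalized read counts in the vehicle mice and 1439, 1309 and 1642 in the Tributyrin mice. The vehicle mice had an SD of only 29.9 normalized read counts, and Tributyrin mouse 3 stood above the rest. Its log2 fold change was 0.11 with a standard error of 0.09, which rested on single mice: it was 0.02 without Tributyrin mouse 3 and 0.18 without Tributyrin mouse 2. *Cavin1* (ENSMUSG00000004044, chr11:100956733-100970887, minus strand) had 6330, 6796 and 6612 against 6054, 6095 and 6648 normalized read counts. The groups overlapped and the log2 fold change was -0.07 with a standard error of 0.07 (-0.11 to -0.04 with single mice left out). *Cavin4* (ENSMUSG00000028348, chr4:48663514-48673502, plus strand) had 3108, 3379 and 2908 against 2893, 3153 and 2988, again overlapping. Its log2 fold change was -0.06 with a standard error of 0.08, and it turned to 0.05 without vehicle mice 1 and 2. The ratio of *Trim72* to *Cav3* TPM was 1.56 ± 0.31 in WD + Vehicle and 2.19 ± 0.44 in WD + Tributyrin (SD, n = 3 each), a description with overlapping groups.

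The annexins had lower or like means in WD + Tributyrin. *Anxa1* (ENSMUSG00000024659, chr19:20373428-20390944, minus strand), known for its part in resolving inflammation as well as in membrane repair, had 514.5, 561.4 and 533.0 normalized read counts in the vehicle mice and 424.5, 498.0 and 500.1 in the Tributyrin mice. It was the one member whose groups did not overlap. Its means were 536 ± 23.6 and 474 ± 43.0, with a log2 fold change of -0.18 and a standard error of 0.10, or -0.10 without Tributyrin mouse 1. Of all 14133 genes tested, 4.65% were likewise lower without overlap and 8.91% did not overlap in either direction, so 1 of 10 is close to what the whole table gives. *Anxa2* (ENSMUSG00000032231, chr9:69453620-69491795, plus strand), which pairs with S100A10 at the membrane, had 1189, 1362 and 1470 against 993.1, 1225 and 1402 normalized read counts. The mice spread more than the groups differed, with a log2 fold change of -0.15 and a standard error of 0.12. It was -0.02 without Tributyrin mouse 1, -0.08 without vehicle mouse 3, -0.27 without Tributyrin mouse 3 and -0.29 without vehicle mice 1 and 2.

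*Anxa5* (ENSMUSG00000027712, chr3:36448923-36475894, minus strand) forms lattices on exposed phosphatidylserine. It had 1888, 2081 and 2028 normalized read counts against 1689, 1981 and 1851, with a log2 fold change of -0.12 and a standard error of 0.08, or -0.05 without Tributyrin mouse 1. *Anxa6* (ENSMUSG00000018340, chr11:54979108-55033445, minus strand), the large annexin that forms the repair cap of muscle fibres, was the steadiest of the 10 genes, at 5585, 5283 and 5526 against 5809, 5574 and 5600. Its log2 fold change was 0.05 with a standard error of 0.06, and -0.02 with scaling by library size alone, which moved the median of all genes to -0.07. As *Anxa6* kept its level and *Anxa5* had a lower mean, the ratio of their TPM was 1.66 ± 0.13 in WD + Vehicle and 1.88 ± 0.19 in WD + Tributyrin, with overlapping groups.

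*Bin1* (ENSMUSG00000024381, chr18:32377230-32435737, plus strand) had nearly the same mean in both groups. Its normalized read counts were 117.5, 169.0 and 140.4 in the vehicle mice and 143.1, 158.1 and 127.3 in the Tributyrin mice. The log2 fold change was 0.00 with a standard error of 0.16, the widest of the members beside that of *Trim72*, and its sign changed when single mice were left out. At 111 to 218 counts a library, counting error alone was up to 9.49% of its value, beside at most 1.79% for *Trim72*.

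Across the whole table, edgeR's quasi-likelihood test gave 0 of 14133 genes past an FDR of 10%, which is 0% of the genes, and 0 of the 10 members. The 9 members other than *Trim72* had an adjusted p of 0.999 each. At an unadjusted p under 0.05, 2 of the 10 members (*Trim72* and *Dysf*, both higher) stood beside 600 of all genes, or 4.25%, of which 278 were higher, or 1.97%. Since *Trim72* was picked from this contrast, nothing is read from that count. The count of members past 10% depended on the fit, and for *Trim72* it is likewise no test: it was 1 (*Trim72*) with the replicate block, where 0.0142% of all genes passed, 1 (*Trim72*) with DESeq2, where 0.0835% passed, and 2 (*Trim72* and *Dysf*) in edgeR with no filter on low counts, where 0.653% passed. Of the 10 members 5 had a positive and 5 a negative log2 fold change, with a median of -0.03, beside 7012 positive and 7121 negative among all genes.

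**Figure D3:**
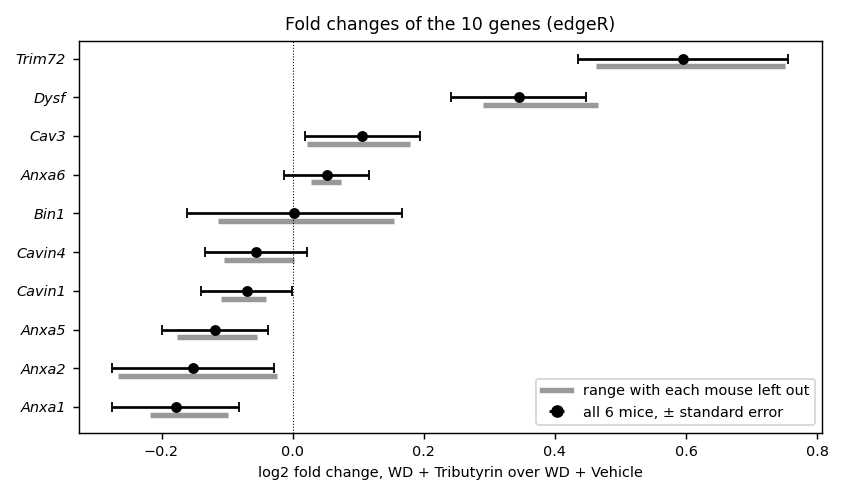
Log2 fold change of WD + Tributyrin over WD + Vehicle for each gene from edgeR (points, with bars of 1 standard error), and below each the range when single mice are left out (grey). *Trim72* (0.60) and *Dysf* (0.34) stay above 0 in every such fit, *Bin1* (0.00) spans -0.11 to 0.15, and the annexins other than *Anxa6* stay below 0.

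The rest of the repair pathway was taken from lists of its gene families. These lists hold 78 genes beside the members, of which 74 were tested. None passed an FDR of 10%, and 1 had an unadjusted p under 0.05, *Myof*. The median size of their log2 fold changes was 0.07 in either direction, beside 0.09 for all genes. Some scarce genes lay further out, such as *Anxa8* at -0.82 with 5 to 26 counts a library, named after its values were seen, and its groups overlapped. Without the members, 6 of 7 annexins tested had a negative value, with a median of -0.14. Of 10 genes of caveolae other than the members 9 were negative, with a median of -0.04. *Ehd4*, an ATPase of the caveolar neck, was the most abundant of these (-0.12, SE 0.08), and *Ehd3*, also named after its values were seen, was the furthest from 0 (-0.40, SE 0.21). Of 10 genes of the ESCRT machinery, which pinches off damaged membrane, 9 were positive but small, with a median of 0.04 (*Chmp4b* 0.03, SE 0.07). These counts are descriptions.

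The remaining lists held no other gene with an unadjusted p under 0.05. Of 6 S100 genes tested 5 were negative, with a median of -0.05 (*S100a1* -0.01, SE 0.09). The 5 calpain genes, of calcium-dependent proteases, their small subunit and their inhibitor, had a median of -0.01 (*Capns1*, the subunit, 0.04, SE 0.07). For 6 genes of vesicle fusion the median was -0.05 (*Smpd1*, acid sphingomyelinase, 0.01, SE 0.08). The 6 genes of the T-tubule and dyad other than *Bin1* had a median of -0.05 (*Tcap* 0.11, SE 0.15), and 14 genes of the dystrophin complex, which anchors the membrane, one of -0.05 (*Dag1* 0.01, SE 0.07). The 7 TRIM genes other than *Trim72* had a median of -0.09, with *Trim54* at 0.07 (SE 0.10). The 3 ferlins tested other than *Dysf* had a median of -0.34, *Myof* among them.

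Mice of the same group differed more in *Trim72* than in most genes. Its pooled SD within groups was 0.29 on the log2 CPM scale, at percentile 95.1 of 9738 genes with a mean CPM (counts scaled by library size) of at least 5, whose median SD was 0.12. *Bin1* and *Anxa2* were also variable, with an SD of 0.21 each, at percentiles 87.5 and 86.5. *Dysf* was at 0.16, and *Anxa6* was at 0.04 (percentile 3.09). The mean difference of *Trim72* between the groups, 0.60, was therefore about as wide as the distance between mice 1 and 3 inside the vehicle group, which lay 0.30 below and 0.28 above their mean.

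The deviations of *Trim72* from its group mean were -0.30, 0.02 and 0.28 in the vehicle mice and -0.33, 0.12 and 0.21 in the Tributyrin mice. Those of *Anxa2* were -0.17, 0.03 and 0.14, and -0.27, 0.04 and 0.23. Mouse 1 of each group was thus the lowest for both genes and mouse 3 the highest. The deviations of the 2 genes had a Pearson correlation of 0.96 over the 6 mice, and those of *Anxa1*, *Anxa5* and *Cavin1* with *Trim72* had 0.78, 0.77 and 0.68. *Dysf* had 0.41, *Bin1* 0.26, *Cav3* 0.15, *Cavin4* 0.01 and *Anxa6* -0.54. These values describe 6 points that share libraries and sum to 0 in each group, and they carry no test. *Trim72* was listed from the fit with the replicate number as a block, which favours genes whose same-numbered mice deviate alike. Its likeness between same-numbered mice was therefore part of its selection.

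**Figure D4:**
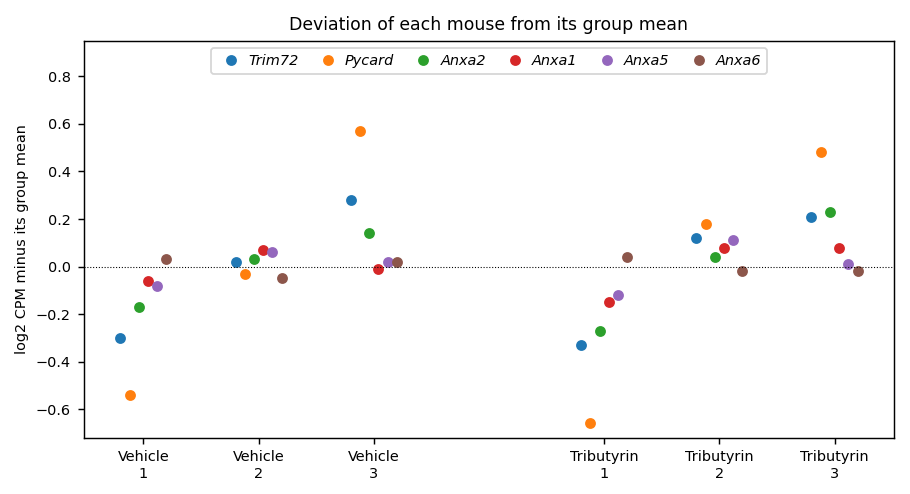
Difference of each mouse from the mean of its group in log2 CPM for *Trim72*, *Pycard* and 4 annexins. *Trim72*, *Pycard* and *Anxa2* are lowest in mouse 1 and highest in mouse 3 of both groups, while *Anxa6* stays within 0.05 of 0. For *Trim72* this likeness of same-numbered mice is part of how it was listed.

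*Pycard* (ENSMUSG00000030793, chr7:127989708-127993867, minus strand) encodes ASC, the adaptor protein of inflammasomes, and lies head to head with *Trim72*, 10082 bases away. It was looked at because it lies within 20 kb. Its normalized read counts were 34.3, 49.6 and 75.8 in the vehicle mice and 59.9, 107.8 and 134.2 in the Tributyrin mice. The 6 mice stood in the same order for both genes, and the groups overlapped in the same way, Tributyrin mouse 1 being below vehicle mouse 3. The means were 53.2 ± 21.0 and 101 ± 37.7 (SD, n = 3 each), with a log2 fold change of 0.93 and a standard error of 0.33 from 33 to 118 counts a library. Without vehicle mice 1 and 2 the log2 fold change was 0.40. In TPM, *Pycard* stood at 0.62% to 1.12% of *Trim72*.

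In log2 CPM the Pearson correlation of *Pycard* with *Trim72* was 0.99 over the 6 mice, the highest of 14132 other genes tested, and with the group means removed it was also 0.99. Macrophage markers, of a cell type that uses *Pycard*, summed to 2691 to 3360 normalized counts in WD + Vehicle and 2540 to 3319 in WD + Tributyrin. All 5 had a negative log2 fold change, from -0.12 to -0.01, each within 1 standard error of 0. Their part in the *Pycard* values was not tested.

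**Figure D5:**
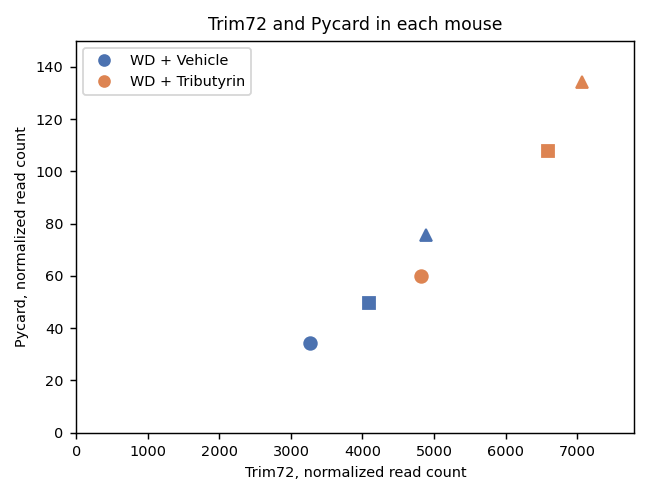
Normalized read counts of *Trim72* (horizontal axis) and *Pycard* (vertical axis) in each mouse, with both axes from 0 (blue, WD + Vehicle; orange, WD + Tributyrin; circle, square and triangle are mice 1, 2 and 3). The 6 mice stand in the same order for both genes, from 3260 and 34.3 in vehicle mouse 1 to 7061 and 134.2 in Tributyrin mouse 3.

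Among 9737 other genes with a mean of at least 5 CPM, those whose log2 CPM was most like that of *Trim72* over the 6 mice were *Ccdc28a* (Pearson correlation 0.99), *Rundc1* (0.98), *Ncbp1* (0.96), *Gabarapl2* (0.96) and *Trmt1l* (0.96). Those most opposed were *Gpr153* (-0.98), *Stx7* (-0.97), *Chpf2* (-0.97), *Slc43a2* (-0.97) and *Zfp65* (-0.97). With 6 points this is a ranking and no test, and the genes ranged less than *Trim72* itself: *Rundc1* ran from 414 to 445 normalized read counts while *Trim72* ran from 3260 to 7061. *Dysf* ranked 169 with 0.78, *Cav3* had 0.45, *Anxa6* 0.23, *Anxa2* 0.21 and *Bin1* 0.20, and *Anxa5*, *Cavin1*, *Anxa1* and *Cavin4* were between -0.08 and -0.27. *Anxa2* thus followed *Trim72* within the groups and not across them, the Tributyrin mice being higher in *Trim72* but not in *Anxa2*.

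Other cell types were looked at through their markers. Smooth muscle and pericyte markers summed to 17970 to 19460 normalized counts in WD + Vehicle and 18520 to 22220 in WD + Tributyrin. Most of this sum was *Rgs5*, with 12380 to 15220 in each mouse. Of the 6, 2 had an unadjusted p under 0.05 in edgeR (log2 fold change of 0.59 for *Myh11* and 0.71 for *Cnn1*). The others were *Rgs5* 0.14, *Acta2* 0.11, *Tagln* 0.08 and, in the other direction, *Pdgfrb* -0.19. Endothelial markers, of the cells richest in *Cav1*, summed to 14980 to 15340 and 14200 to 15770. Markers of fast skeletal muscle, a tissue in which *Trim72* and *Dysf* are abundant, summed to 58.4 to 72.8 in WD + Vehicle and 55.1 to 70.4 in WD + Tributyrin, and 2 of these 7 genes had enough reads to be tested. Erythroid markers summed to 9927 to 14240 and 7775 to 19580, mesothelial markers to 260 to 590 and 356 to 489, Schwann cell markers to 142 to 164 and 165 to 171, and adipocyte markers to 16.6 to 45.0 and 12.6 to 75.8. Their part in the values of the 10 genes was not tested.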

How the data were processed

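Stranded mRNA libraries from 6 hearts, 1 per mouse, were sequenced by the authors as single-end 50-base reads. The deposited values are counts of reads per gene, whole numbers without normalization. Per the submitters' processing notes, the tools were cutadapt 1.13, STAR, HTSeq 0.6.1p1 and DESeq2 1.14.1 with the mm10 build. The authors also removed reads of poor quality or from rRNA. Whether counting used strand, and with which annotation release, is not given in the sources used here. Without strand, reads of a gene and its antisense partner cannot be told apart. Of 54232 identifiers, 54165 matched GENCODE M21 (GRCm38), the source of names and positions, and 0 lines named no gene.

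Groups followed the labels. The comparison used edgeR 4.0.16 (R 4.3.3) on all 6 libraries: TMM scaling, filterByExpr (minimum count 10, minimum total 15), the quasi-likelihood test with no covariate, and Benjamini-Hochberg adjustment over 14133 genes, with thresholds of 10% and 5%. The fit was tested on simulated data. Normalized read counts are counts divided by DESeq2 1.42.0 size factors. TPM was computed from counts and the merged exon length. Correlations used log2 CPM with a prior count of 2. Tables were made with Python 3.11.15, numpy 2.4.6, pandas 2.3.3 and matplotlib 3.10.9. No 2 libraries were as alike as counting noise allows (chi-square per degree of freedom 6.67 to 28.2). Totals of 20369746 to 32734485 counts set the counting error, which is smallest in the deepest library.

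The genes, the lists and the tests were chosen with earlier results of these data known. The genes named are the 10 members, the most abundant gene of each list and up to 3 with an unadjusted p under 0.05, the 5 genes most and least like *Trim72*, genes within 20 kb of *Trim72* or overlapping a member, and cell type markers. *Xist*, *Ddx3y*, *Anxa8* and *Ehd3* were named after their values were seen. Some genes near *Trim72* are not reported here. The alternatives were other scalings, filters and tests, the replicate number as a block, and each mouse left out. One fit without vehicle mice 1 and 2 was added after seeing the data. Promoter sequences are from RefSeq on GRCm38.p6.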

Additional observations from a re-analysis of the deposited data

How the results depend on the processing

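The log2 fold changes of *Trim72*, *Dysf*, *Cav3*, *Cavin1*, *Anxa1*, *Anxa2* and *Anxa5* kept their direction in all 15 alternatives run. Past an FDR of 10% lay 0 genes in edgeR (600 at an unadjusted p under 0.05), 167 with no filter on low counts, 11 with DESeq2 and 0 with limma-voom (605 at an unadjusted p under 0.05). With single mice left out this number ran from 0 to 3, with 2 genes without vehicle mouse 1, vehicle mouse 3, Tributyrin mouse 1 or Tributyrin mouse 2, and 3 without Tributyrin mouse 3. Of the members, 2 passed with no filter, 1 with DESeq2 and 0 with any single mouse left out. *Trim72* had 0.60 with no filter and 0.59 with DESeq2, and as it was chosen from this contrast its passing is no test. *Dysf* had 0.35 (adjusted p 0.0188) with no filter, and its adjusted p ran from 0.0188 to 1.00 over all alternatives. The cause was not tested.

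Another fit used the replicate number as a block. Deviations of same-numbered mice correlated at 0.21, 0.04 and 0.01. Of the 3 vehicle mice, 2 correlated best with a Tributyrin mouse of their own number. As the correlations of same-numbered mice were low, the numbers are not shown to pair the mice. The block gave 2 genes past 10%, 1 of them a member: *Trim72*, at 0.60, the fit for which it was listed.

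Directions turned for genes near 0. *Cavin4* was 0.0018 without vehicle mouse 2 (single mice left out: -0.11 to 0.0018) and 0.047 without vehicle mice 1 and 2. *Anxa6* was -0.020 with library size alone. *Bin1* was -0.069 with library size alone, -0.0014 with a mean CPM of at least 5, and -0.11 to 0.15 with single mice left out, with -0.11 without vehicle mouse 1, -0.0076 without vehicle mouse 3 and -0.08 without Tributyrin mouse 2. Ranges with single mice left out were 0.46 to 0.75 for *Trim72*, 0.29 to 0.47 for *Dysf*, 0.02 to 0.18 for *Cav3*, -0.11 to -0.04 for *Cavin1*, -0.22 to -0.10 for *Anxa1*, -0.27 to -0.02 for *Anxa2*, -0.18 to -0.05 for *Anxa5* and 0.03 to 0.07 for *Anxa6*.

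With 3 mice a group, differences of the size seen in the caveolar genes and annexins lie within 2 standard errors of 0, and absence of a difference is not shown. Mice within a group spread widely in *Trim72*, and the depth of 111 to 218 counts limits *Bin1*.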
